A study of Mus musculus with 14 samples.

Results

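Complex I, the NADH:ubiquinone oxidoreductase, is the entry point of the mitochondrial respiratory chain. The genes described here are 36 nuclear genes of the mouse Nduf series, taken from a list of gene symbols and matched to 1 protein-coding Ensembl gene each among the 55401 genes of the count table, with pseudogenes left out. The list is one of symbols and uses no expression value, but it was drawn up with earlier results of these data known. RNA was measured by APEX-seq in small intestinal organoids (sIOs), which are cultures of intestinal epithelium grown in Matrigel from mouse crypts (the study's mice were adults of both sexes in the C57BL/6 J background). A peroxidase, APEX2, was fused to a bait protein, and it attached biotin to RNA near the bait when biotin-phenol and a short pulse of H2O2 were given. Biotinylated RNA was then captured on streptavidin and sequenced.

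The apical bait, APEX2-V5-DPP4, and the cytoplasmic baits, APEX2-V5-ACTB and APEX2-V5-GFP, had 4 libraries each, and are called DPP4, ACTB and GFP below. MITO-V5-APEX2, a COX4 fusion directed to mitochondria, had 1 library labelled MITO-1 and 1 labelled MITO-1c. The study sequenced this bait with and without H2O2, and the labels do not state the treatment of either library. All sIOs carried a lentiviral fusion gene and its ZsGreen1 reporter, and no library without a fusion was analysed here. The sources used here do not say if the 4 libraries of a bait are separate cultures, so p-values measure the spread between these libraries, which may be technical.

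Complex I passes electrons from NADH to ubiquinone and pumps protons out of the mitochondrial matrix. Its matrix arm holds a flavin and a chain of iron-sulfur clusters, and its membrane arm holds the proton channels. Core subunits do the chemistry and are conserved from bacteria, while accessory subunits surround and stabilize them. The core of the membrane arm is encoded by mitochondrial DNA (7 mt-Nd genes), and the nuclear-encoded subunits are made on cytosolic ribosomes and imported. Absorptive enterocytes draw on this respiration to drive nutrient uptake. Of the 36 genes, 6 encode core subunits of the matrix arm, 9 accessory subunits of the matrix arm, 9 accessory subunits of the proximal membrane arm, 10 accessory subunits of the distal membrane arm, and 1 the mitochondrial acyl carrier protein (Ndufab1). The remaining gene, Ndufa4, was first counted as a complex I subunit and was assigned to complex IV by later work.

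The libraries held 9442594 to 36492010 counts, and the 100 most abundant genes took 24.0% to 48.2% of them. Enterocyte markers were present as the tissue label says, with 10 of 10 found, but their summed level ranged widely within each bait, between 466 and 91117 normalized CPM (scaled counts) in DPP4 libraries, 243 and 51380 in ACTB libraries and 420 and 47904 in GFP libraries. Normalized CPM are the usual CPM of the library total, divided by a library's factor from edgeR's trimmed mean of M-values (TMM). Mesenchymal markers summed to at most 1.76 and immune and endothelial markers to at most 4.16 normalized CPM in any library. DPP4 library 3 stood apart in the complex I genes, and results that rest on it are given with and without it.

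Ndufa13 (chr8:69894180-69902558, GRCm38, minus strand), which encodes a membrane-arm subunit also known as GRIM-19, was listed at 0 counts in all 14 libraries. A count of 0 allows up to 3 counts, which is 0.0676 to 0.341 CPM depending on the library. The annotation places Tssk6, a testis kinase gene on the opposite strand, over 30% of the Ndufa13 exon bases. The library kit does not mark strand, and why the row holds no count was not tested. The other 35 genes all passed the filter of at least 5 counts over the 8 libraries of each comparison. All 35 had at least 10 counts in every library except DPP4 library 4, where 33 did.

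Levels differed more between libraries of a bait than between baits. The median over the 35 genes was 119, 87.2, 12.8 and 53.6 normalized CPM in DPP4 libraries 1 to 4, 54.3, 142, 81.9 and 59.7 in ACTB libraries 1 to 4, and 57.1, 133, 152 and 64.0 in GFP libraries 1 to 4. The mean of these library medians was 68.1 ± 45.5 in DPP4, 84.6 ± 40.4 in ACTB and 102 ± 48.2 in GFP libraries (SD, n = 4 each), so the baits overlapped and DPP4 library 3 lay far under all others. By mean over 4 libraries, 30 of the 35 genes were highest in GFP, 4 in ACTB and 1, Ndufv1, in DPP4.

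Enterocyte markers were high where these medians were highest. GFP library 3, ACTB library 2, GFP library 2 and DPP4 library 1, the 4 libraries with the highest complex I medians, were also the 4 with the highest summed enterocyte markers, at 47904, 51380, 17513 and 91117 normalized CPM. DPP4 library 3, the lowest, had 7067. ACTB library 3, with a median of 81.9, had only 588. In the 4 libraries with the highest medians goblet markers summed to 2420 to 9341 and crypt and proliferation markers to 25.2 to 249 normalized CPM, against 28.1 to 7383 and 225 to 935 in the other 8. The part of cell content in the levels was not tested, and in such bulk libraries fewer cells of a type and less RNA per cell cannot be told apart. The 2 MITO libraries had medians of 81.9 CPM in MITO-1 and 91.3 CPM in MITO-1c, within the range of the other baits, beside summed enterocyte markers of 11424 CPM in MITO-1 and 12784 CPM in MITO-1c.

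**Figure D1:**
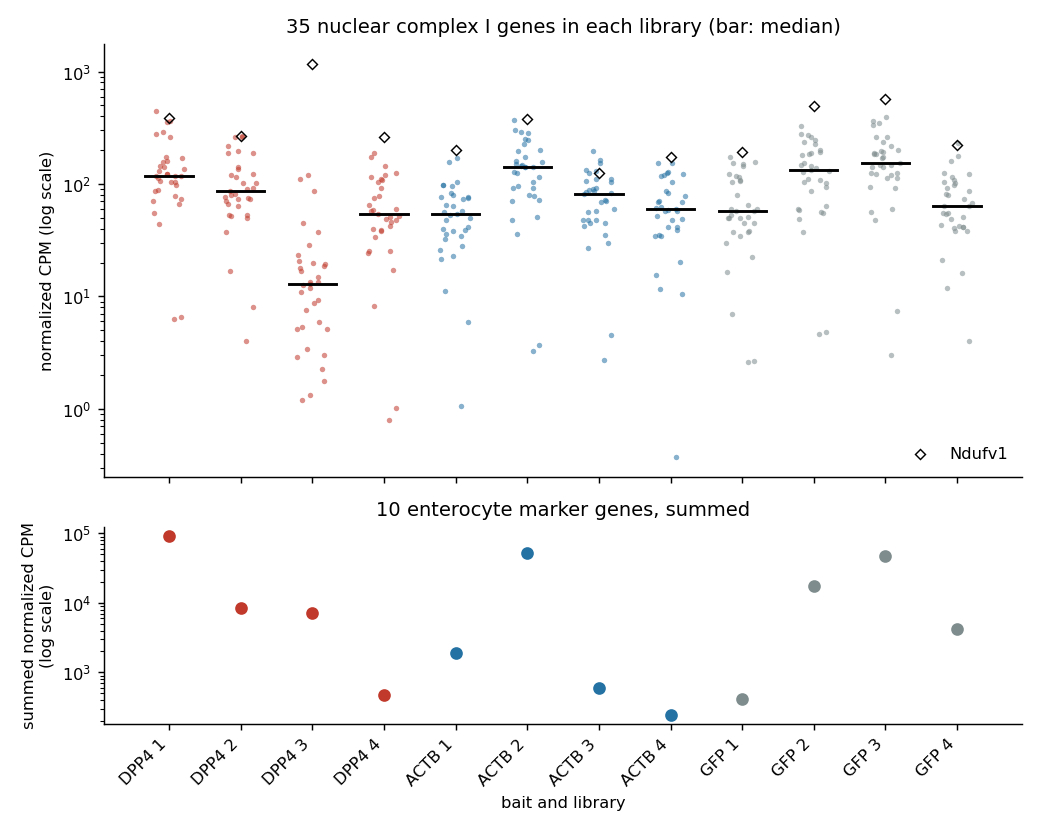
Each point of the upper panel is 1 of the 35 complex I genes with counts, in normalized CPM on a log scale, in each library of the DPP4 (red), ACTB (blue) and GFP (grey) baits. Bars mark library medians and diamonds mark Ndufv1, which reached 1176 in DPP4 library 3 where the median was 12.8. The lower panel gives the summed normalized CPM of 10 enterocyte marker genes, from 243 in ACTB library 4 to 91117 in DPP4 library 1.

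Among the core subunits, Ndufv1 (chr19:4007384-4012806, GRCm38), the subunit that binds the flavin and oxidizes NADH, had 383, 269, 1176 and 262 normalized CPM in DPP4 libraries 1 to 4, 202, 381, 124 and 173 in ACTB libraries 1 to 4 and 193, 492, 569 and 220.1 in GFP libraries 1 to 4. DPP4 library 3 was the highest of the 12, ahead of GFP library 3, and the other 3 DPP4 libraries lay within the range of the ACTB and GFP libraries. Ndufv2, its iron-sulfur partner in the NADH-binding module, had 263, 265, 19.9 and 119.9 normalized CPM in the DPP4 libraries, 105, 287, 154 and 104 in the ACTB libraries and 144, 228, 393 and 176 in the GFP libraries. The same DPP4 library was the lowest of all 12 for Ndufv2.

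Ndufs1, the largest subunit, which carries several of the iron-sulfur clusters, had 169.7, 189.5, 19.3 and 125 normalized CPM in the DPP4 libraries, 75.6, 199, 109.9 and 123 in the ACTB libraries and 157, 94.5, 201 and 123 in the GFP libraries. Ndufs3, a core subunit of the ubiquinone module that carries no cluster, had 118, 66.1, 20.6 and 57.9 normalized CPM in the DPP4 libraries, 39.997, 127, 85.2 and 51.9 in the ACTB libraries and 49.97, 148, 142 and 63.9 in the GFP libraries. Both were lowest in DPP4 library 3, and the values of each bait overlapped those of the others. Ndufs7, which carries the last cluster before ubiquinone, had 279, 190.0, 111 and 173 normalized CPM in the DPP4 libraries, 98.6, 300.3, 107 and 154 in the ACTB libraries and 174, 277, 336 and 125 in the GFP libraries. Ndufs8, which carries the clusters leading up to it, had 161, 141, 11.8 and 108 normalized CPM in the DPP4 libraries, 79.4, 175, 109.7 and 127 in the ACTB libraries and 106, 133, 193 and 102 in the GFP libraries. Ndufs7 was not lowest in DPP4 library 3, since ACTB libraries 1 and 3 were lower, whereas Ndufs8 was, at 11.8 against at least 79.4 elsewhere.

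Among accessory subunits of the matrix arm, Ndufa6, which anchors an acyl carrier protein to the ubiquinone module, had 448, 217, 17.99 and 115 normalized CPM in the DPP4 libraries, 98.2, 369, 133 and 68.98 in the ACTB libraries and 124, 329, 366 and 105 in the GFP libraries. Ndufa2, a small protein with a thioredoxin-like fold, had 97.96, 74.8, 5.91 and 45.7 normalized CPM in the DPP4 libraries, 73.05, 78.1, 70.7 and 57.2 in the ACTB libraries and 37.96, 56.3, 59.8 and 74.1 in the GFP libraries. Ndufa7 had 130.2, 79.4, 5.35 and 75.1 normalized CPM in the DPP4 libraries, 47.98, 125, 125 and 62.4 in the ACTB libraries and 103, 236, 185 and 93.1 in the GFP libraries. These genes differed in pattern, since Ndufa6 was highest in DPP4 library 1, Ndufa2 stayed between 37.96 and 97.96 outside DPP4 library 3, and Ndufa7 was highest in GFP libraries 2 and 3. Ndufa12 had 117, 49.5, 9.25 and 42.1 normalized CPM in the DPP4 libraries, 34.3, 142, 71.5 and 59.7 in the ACTB libraries and 50.6, 199, 217 and 41.3 in the GFP libraries. Ndufs4, whose loss causes Leigh syndrome in humans and a like disease in mice, had 87.4, 70.7, 23.5 and 64.6 normalized CPM in the DPP4 libraries, 76.9, 91.3, 81.9 and 61.4 in the ACTB libraries and 49.7, 48.6, 125 and 55.1 in the GFP libraries. The 2 genes were unlike in spread, with Ndufs4 at 48.6 to 125 and Ndufa12 at 34.3 to 217 outside DPP4 library 3. The remaining genes of this group, Ndufa5, Ndufa9, Ndufs6 and Ndufv3, averaged 69.9 (Ndufv3) to 130.1 (Ndufa9) normalized CPM over the 12 libraries, and all 9 genes of the group were lowest in DPP4 library 3.

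In the proximal membrane arm, Ndufa1, a short single-pass subunit encoded on the X chromosome, had 123, 73.6, 1.32 and 38.3 normalized CPM in the DPP4 libraries, 22.7, 140.4, 47.6 and 58.5 in the ACTB libraries and 49.4, 144, 172 and 40.5 in the GFP libraries. Ndufc2 had 73.7, 122, 1.76 and 59.8 normalized CPM in the DPP4 libraries, 76.3, 71.7, 105 and 69.9 in the ACTB libraries and 57.2, 63.8, 113 and 86.03 in the GFP libraries. Ndufc1 had 78.1, 52.5, 37.1 and 25.5 normalized CPM in the DPP4 libraries, 28.05, 105, 35.4 and 38.7 in the ACTB libraries and 37.7, 194, 146 and 41.5 in the GFP libraries. Ndufa1 and Ndufc2 dropped to 1.32 and 1.76 in DPP4 library 3, while Ndufc1 at 37.1 did not leave the range of its other libraries there. Ndufa8, a cysteine-rich subunit on the intermembrane space side, had 143, 116, 120.3 and 78.4 normalized CPM in the DPP4 libraries, 82.5, 149, 86.3 and 86.01 in the ACTB libraries and 79.02, 183, 197 and 116 in the GFP libraries. Ndufs5, another subunit of that side, had 44.1, 16.9, 1.20 and 8.19 normalized CPM in the DPP4 libraries, 11.3, 35.8, 26.7 and 11.6 in the ACTB libraries and 7.01, 37.6, 47.8 and 12.002 in the GFP libraries. Ndufa10, a subunit related to nucleoside kinases, had 367, 259.8, 87.5 and 145 normalized CPM in the DPP4 libraries, 171, 247, 164 and 154 in the ACTB libraries and 150.0, 245, 261 and 232 in the GFP libraries. Ndufa8 and Ndufa10 varied the least of this group, and Ndufa8 was not low in DPP4 library 3, with 120.3 there beside 78.4 to 197 in the other 11 libraries. Ndufa3 and Ndufa11 averaged 48.5 and 68.4 over the 12 libraries.

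In the distal membrane arm, Ndufb7, a cysteine-rich subunit on the intermembrane space side, had 113, 53.1, 16.9 and 59.1 normalized CPM in the DPP4 libraries, 56.6, 160.2, 56.9 and 71.3 in the ACTB libraries and 59.96, 179, 185 and 80.7 in the GFP libraries. Ndufb3 had 55.2, 37.2, 2.89 and 25.6 normalized CPM in the DPP4 libraries, 21.7, 47.4, 42.6 and 15.6 in the ACTB libraries and 16.6, 58.7, 55.9 and 20.98 in the GFP libraries. Both were highest in GFP libraries 2 or 3 and lowest in DPP4 library 3. Ndufb2 had 6.56, 8.08, 3.02 and 1.02 normalized CPM in the DPP4 libraries, 5.97, 3.74, 4.58 and 10.4 in the ACTB libraries and 2.69, 4.78, 7.38 and 4.03 in the GFP libraries, and Ndufb4 had 6.31, 3.97, 14.8 and 0.796 normalized CPM in the DPP4 libraries, 1.06, 3.30, 2.69 and 0.371 in the ACTB libraries and 2.63, 4.68, 2.99 and 16.03 in the GFP libraries. Ndufb2 was highest in ACTB library 4 (366 counts), and Ndufb4 in GFP library 4 (191 counts) and DPP4 library 3 (236 counts). The other 6 genes of the group averaged 42.3 (Ndufb9) to 159 (Ndufb5) normalized CPM.

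Ndufab1, the mitochondrial acyl carrier protein, which also serves fatty acid and lipoate synthesis, had 107, 52.3, 44.8 and 33.4 normalized CPM in the DPP4 libraries, 64.8, 95.8, 44.6 and 34.2 in the ACTB libraries and 37.6, 105, 123 and 55.1 in the GFP libraries. Ndufa4 had 289, 263, 7.61 and 104 normalized CPM in the DPP4 libraries, 158, 290.1, 196 and 121 in the ACTB libraries and 119, 271, 346 and 159.8 in the GFP libraries. Ndufab1 in DPP4 library 3 lay among the other libraries, and Ndufa4 was lowest there, at 7.61 against at least 104 elsewhere.

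Levels were compared between genes per kilobase of the main annotated transcript, as the mean normalized CPM of 12 libraries divided by length. On that scale Ndufa6 (337), Ndufa4 (317) and Ndufv1 (223) were highest, 23 of the 35 genes lay between 50 and 200, and 32 were over 30. By role the medians were 115 for core subunits, 90.02 for accessory subunits of the matrix arm, 106 for the proximal and 99.9 for the distal membrane arm. The lowest were Ndufb2 (1.19), Ndufb4 (5.12) and Ndufab1 (19.1). The main transcripts of Ndufb2 and Ndufab1 are annotated at 4371 and 3479 bases, long for this family, which lowers their values on this scale. Ndufb2 was also low before the division, at 5.19 normalized CPM. Of the Ndufb4 75-base stretches, 35.2% also occur in other genes, pseudogenes among them, and reads with more than 1 place were not counted. The same share was 28.2% for Ndufs3, 22% for Ndufa12 and 17.1% for Ndufs5, each with a pseudogene among the other genes. It was 27.8% for Ndufb6 and 20.3% for Ndufb9, from genes that overlap them in place. These are Smim27 on the opposite strand of Ndufb6 and Gm49356 on the same strand as Ndufb9. Reads there have 1 place but can be dropped as fitting more than 1 gene. The levels of all these genes are uncertain in that respect.

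The order of the 35 genes within a library was alike in 11 libraries. The rank of the genes in each library correlated with that of their mean over the other libraries, as a description across genes, at a Spearman rho of 0.77 to 0.95 in 11 libraries and of 0.47 in DPP4 library 3. Over all 12 libraries the SD of the log2 level was widest for Ndufa1 (1.87), Ndufc2 (1.62) and Ndufb4 (1.57), and narrowest for Ndufa8 (0.47), Ndufa10 (0.55) and Ndufs4 (0.61). Without DPP4 library 3 Ndufc2 was the steadiest gene, at 0.37. The median SD of the 35 genes was 1.06, against 0.84 for 7356 other protein-coding genes with a mean of at least 20 normalized CPM. Without DPP4 library 3 it was 0.67, against 0.73.

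DPP4 library 3 was set against the mean of the other 3 DPP4 libraries for genes with at least 20 normalized CPM there. Of 33 such complex I genes, 25 were at least 4-fold lower in DPP4 library 3, beside 19.0% of 6919 protein-coding genes. The median log2 difference was -3.28 for the complex I genes and -0.27 for all. Of all 35 genes, 28 had their lowest value of the 12 libraries there, a count that was not made over all genes. The deepest drops were those of Ndufa1 (-5.89), Ndufc2 (-5.60), Ndufa4 (-4.84) and Ndufb11 (-4.84). Ndufv1 was higher instead, at 1176 against 383, 269 and 262 normalized CPM in DPP4 libraries 1, 2 and 4, a log2 difference of 1.95, and Ndufa8 was level at 0.10. Ndufb4, which was under the 20 normalized CPM limit, was also higher, at 14.8 against 6.31, 3.97 and 0.796.

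The drop went with transcript length in all genes. Protein-coding genes with main transcripts under 700 bases had a median log2 difference of -3.68 (138 genes), those of 700 to 1000 bases -2.84 (266), of 1000 to 1500 bases -1.99 (644), of 1500 to 2500 bases -0.94 (1569), of 2500 to 5000 bases -0.005 (2865) and of 5000 bases or more 0.75 (1433). Complex I genes in the same classes had medians of -3.61 (13 genes), -3.75 (7), -2.60 (6), -1.66 (5) and -1.79 (2), with none of 5000 bases or more. The median of the 13 shortest genes was thus close to that of other genes of their length, and in the other 4 classes the median of the complex I genes was the lower. Genes of 1 class also differed, since Ndufv1 (1661 bases, 1.95) shared its class with Ndufv2 (-3.44) and Ndufv3 (-2.61). The part of transcript length in the drop was not tested. Complexes II to IV (median -3.85, 17 of 22 genes at least 4-fold lower) and ATP synthase (-3.67, 12 of 14) shifted with complex I, as did the mt-Nd genes (-2.57, 3 of 5), while the complex I assembly factors did not (0.56, 0 of 7).

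**Figure D2:**
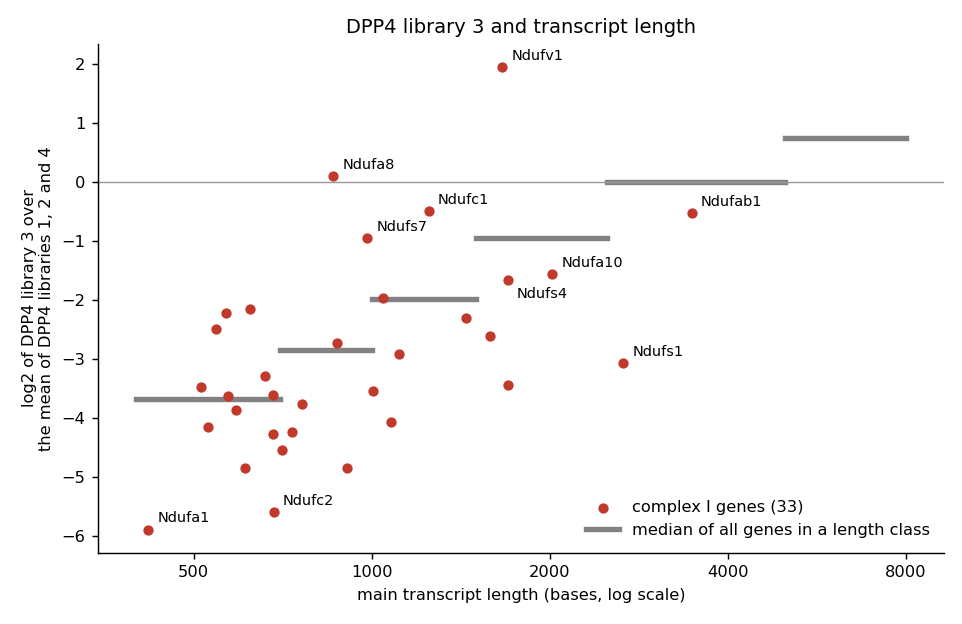
Points are the 33 complex I genes with at least 20 normalized CPM in the other DPP4 libraries, by main transcript length in bases (log scale) and by the log2 of DPP4 library 3 over the mean of DPP4 libraries 1, 2 and 4. Grey bars are medians of all protein-coding genes in each length class, from -3.68 under 700 bases to 0.75 at 5000 bases or more. In 4 of the 5 classes the median of the complex I genes is under the bar, and Ndufv1 (1.95) and Ndufa8 (0.10) lie above 0.

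The first comparison between baits asked which RNA was more abundant near the apical bait than in the cytoplasm. In DPP4 against GFP libraries edgeR's quasi-likelihood test called 0 of 35 complex I genes and 0.0% of all 26136 genes tested. A call needed an adjusted p (Benjamini-Hochberg, over all genes) under 0.05 and a log2 fold change above 1 or below -1. At an unadjusted p under 0.05 there were 0 of the 35, beside 5.87% of all genes, and DESeq2 called 0 of the 35, beside 0.23% of genes with an adjusted p. The log2 fold change was below 0 for 34 genes and above 0 for Ndufv1, with a median of -0.35, against 0.09 for all genes. With DESeq2's size factors in place of TMM the split was 5 above and 30 below, with a median of -0.23 against 0.20 for all genes.

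The size of that lean to GFP depended on single libraries. Without DPP4 library 3 the split was 15 above and 20 below with a median of -0.03, and without GFP library 3 it was 10 above and 25 below with a median of -0.11. The lean was wider without DPP4 library 1, with a median of -0.75. There 4 genes (Ndufa12, Ndufb7, Ndufc1 and Ndufa7) had an unadjusted edgeR p under 0.05, beside 1366 of all 25722 genes. It was also wider without GFP library 1 (-0.56) or GFP library 4 (-0.52), where Ndufa12 and Ndufc1 had one under 0.05. Beside them stood 1819 of all 24982 genes without GFP library 1 and 1366 of 25686 without GFP library 4. No adjusted p of these complex I genes was under 0.05. The smallest p-values were those of Ndufc1, with means of 48.3 ± 22.7 normalized CPM in DPP4 and 105 ± 77.7 in GFP libraries (SD, n = 4 each) and a log2 fold change of -1.12 (SE 0.61, adjusted p = 0.899). Ndufb7 averaged 60.4 ± 39.4 in DPP4 and 126 ± 65.1 in GFP (log2 fold change -1.06, SE 0.60, adjusted p = 0.931), and Ndufa12 54.4 ± 45.2 in DPP4 and 127 ± 94.1 in GFP (log2 fold change -1.22, SE 0.70, adjusted p = 0.934). None of the 3 passed the test, and the libraries of the baits overlapped in each. By role the medians were -0.31 for core subunits, -0.35 for accessory subunits of the matrix arm, -0.35 for the proximal and -0.35 for the distal membrane arm, and without DPP4 library 3 they were -0.11, -0.03, -0.09 and 0.01.

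In ACTB against GFP libraries, which compares the cytoplasmic baits with each other, edgeR again called 0 of 35 genes and 0.0% of 26470 genes. At an unadjusted p under 0.05 it had 0 of the 35, beside 5.61% of all, and DESeq2 called 0 of the 35, beside 0.423% of genes. The log2 fold change was above 0 for 4 genes and below 0 for 31, with a median of -0.42, against 0.11 for all genes. Without GFP library 3 the split was 14 above and 21 below, with a median of -0.14. Without ACTB library 2 the median was -0.75, and 7 of the 35 genes had an unadjusted edgeR p under 0.05, beside 2283 of all 26227 genes. The smallest p-values were those of Ndufa7, at 89.9 ± 40.5 normalized CPM in ACTB and 154 ± 68.2 in GFP libraries (SD, n = 4 each, log2 fold change -0.78, SE 0.45, adjusted p = 0.833), of Ndufc1, at 51.8 ± 35.8 in ACTB and 105 ± 77.7 in GFP (log2 fold change -1.02, SE 0.60, adjusted p = 0.843), and of Ndufv1, at 220.1 ± 112 in ACTB and 369 ± 189.9 in GFP (log2 fold change -0.75, SE 0.47, adjusted p = 0.904). All 6 core subunits were below 0, with a median of -0.44, and none of them passed the test.

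In DPP4 against ACTB libraries edgeR called 0 of 35 genes and 0.0% of 27451 genes. At an unadjusted p under 0.05 it had 0 of the 35, beside 6.17% of all, and DESeq2 called 0 of the 35, beside 0.74% of genes. The split was 16 above and 19 below 0 with a median of -0.03, against 0.05 for all genes. It turned with single libraries, to 31 above and 4 below (median 0.19) without DPP4 library 3, to 30 above and 5 below (median 0.36) without ACTB library 2, and to 5 above and 30 below (median -0.42) without DPP4 library 1. Ndufv1 had the smallest p, with means of 522 ± 439 normalized CPM in DPP4 and 220.1 ± 112 in ACTB libraries (SD, n = 4 each) and a log2 fold change of 1.33 (SE 0.65, adjusted p = 0.817), which was 0.47 without DPP4 library 3. Without ACTB library 2 its unadjusted p was 0.0301 and its adjusted p 0.446. Ndufb4, at 6.48 ± 6.02 in DPP4 and 1.86 ± 1.37 in ACTB, had a log2 fold change of 1.89 (SE 1.21, adjusted p = 0.935), and Ndufb7, at 60.4 ± 39.4 in DPP4 and 86.2 ± 49.8 in ACTB, one of -0.45 (SE 0.59, adjusted p = 1.000).

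Library by library, no complex I gene separated the baits, and neither did most genes. The counts of 0 thus do not set the complex I genes apart. In DPP4 against GFP 0 of 35 had libraries that did not overlap, beside 2.53% of genes with at least 1 normalized CPM, in ACTB against GFP 0, beside 2.5%, and in DPP4 against ACTB 0, beside 3.03%. Without DPP4 library 3 the counts were still 0, beside 4.93% of genes in DPP4 against GFP and 4.84% in DPP4 against ACTB. The smallest two-sided p of an exact permutation test over the 105 gene and comparison pairs was 0.114, where 70 arrangements of 8 libraries allow 0.0286. The comparisons share libraries and are not independent.

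**Figure D3:**
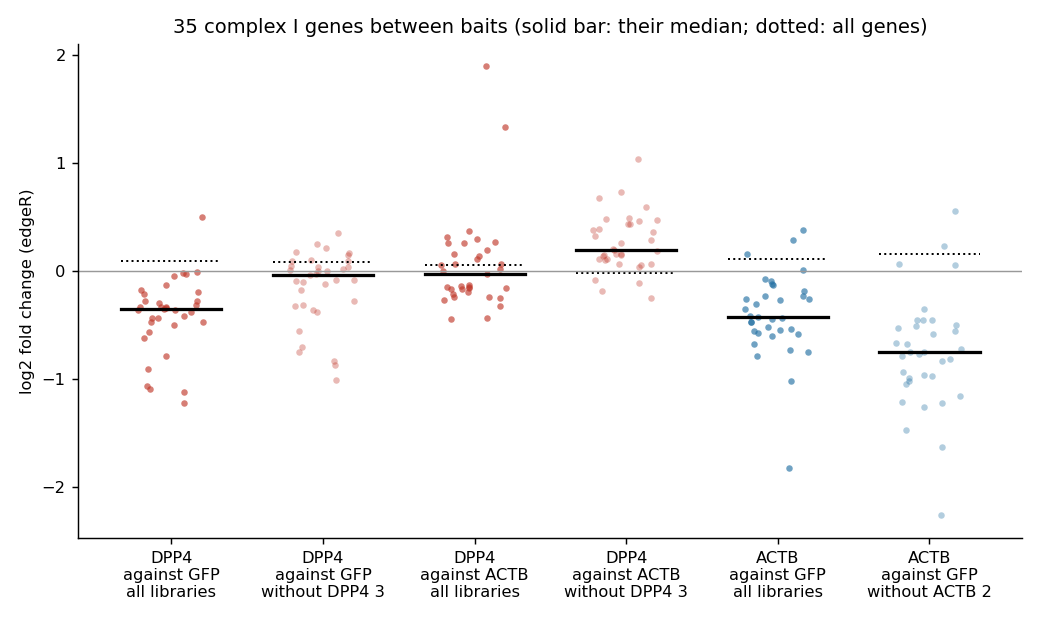
Each point is 1 of 35 complex I genes, by its edgeR log2 fold change between 2 baits with all 8 libraries and with 1 library left out (paler points). Solid bars are the medians of the complex I genes and dotted lines those of all genes tested. For DPP4 against GFP the median was -0.35 with all libraries and -0.03 without DPP4 library 3, for DPP4 against ACTB it was -0.03 and 0.19, and for ACTB against GFP it was -0.42 and, without ACTB library 2, -0.75.

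Related genes were read from the same fits. Of 5 lists of them edgeR and DESeq2 each called 0 genes in each comparison, and in DPP4 against GFP edgeR's unadjusted p was under 0.05 for 1 complex I assembly factor, 2 ATP synthase genes and 1 regulator. There 6 of 14 complex I assembly factors lay above 0 (median log2 fold change -0.14), as did 6 of 6 tested mt-Nd genes (0.78), 10 of 22 genes of complexes II to IV (-0.16), 7 of 15 ATP synthase genes (-0.03) and 2 of 6 regulators of respiratory genes (-0.28). Without DPP4 library 3 the medians were -0.04, 0.84, 0.23, 0.36 and -0.37, and with DESeq2, which scales the libraries otherwise, that of ATP synthase was 0.10. In ACTB against GFP the medians of the 5 lists in that order were -0.04, -0.14, -0.22, -0.24 and -0.44, and in DPP4 against ACTB they were 0.01, 0.57, 0.16, 0.04 and 0.39. Without DPP4 library 3 those of DPP4 against ACTB were 0.02, 0.88, 0.45 (22 of 22 genes of complexes II to IV above 0), 0.32 and 0.10. The median of the mt-Nd genes, made inside mitochondria, thus differed in sign from that of the nuclear complex I genes in DPP4 against GFP. Both signs leaned on single libraries. The mt-Nd library medians were 1260, 1019, 120 and 45.6 normalized CPM in DPP4 libraries 1 to 4. In GFP libraries 1 to 4 they were 41.7, 492, 469 and 225. Only DPP4 libraries 1 and 2 lay above all GFP libraries. The nuclear median was -0.03 without DPP4 library 3. The difference between the 2 groups of genes was not tested.

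The complex I genes varied together from library to library. Over the 11 libraries without DPP4 library 3, the median Pearson r of log2 levels over 595 pairs of genes was 0.76, against 0.01 for pairs of the 7356 other genes. The pairs ranged between -0.30 and 0.98, and 7 were below 0. With Spearman's rho the median was 0.70, with DPP4 library 3 included Pearson's was 0.83, and with GFP library 3 and ACTB library 2 also left out (9 libraries) it was 0.68. The same median was 0.79 for complexes II to IV, 0.70 for ATP synthase, 0.94 for the mt-Nd genes, -0.07 for complex I assembly factors and 0.23 for the regulators. These values describe libraries that differ in depth and enterocyte content, and carry no p. Short genes in general also shifted in most libraries, when each library was set against the mean of the others of its bait. Medians of log2 differences were 0.78 for protein-coding genes under 1000 bases and 1.13 for complex I genes in DPP4 library 1. They were -0.71 and -1.11 in GFP library 1, and 0.46 and 0.81 in GFP library 3. In ACTB library 2 short genes were nearly level while complex I genes were higher, at 0.087 and 1.053. Only in ACTB library 3 did the signs differ, at 0.22 and -0.24. The part of transcript length in the correlation was not tested.

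Against the mean of the other complex I genes, 15 of the 35 genes reached an r of at least 0.9, beside 1.40% of other genes against the mean of all 35. Ndufs6, which binds zinc in the matrix arm (0.96), Ndufb10 (0.95), Ndufa11 (0.95) and Ndufa5 (0.95) were the closest to it. Ndufb2 (0.30), Ndufc2 (0.32), Ndufa2 (0.41), Ndufb4 (0.46), Ndufs4 (0.50), Ndufb8 (0.55) and Ndufs1 (0.55) were the farthest. Ndufb2 and Ndufb4 were the least abundant genes, whereas Ndufc2, Ndufa2, Ndufs4 and Ndufs1 were well counted and among the steadiest, with SDs of 0.37, 0.39, 0.41 and 0.46 over these 11 libraries.

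The promoters of the complex I genes were searched for the letters of factors known to act on respiratory genes. The RefSeq windows (GRCm38.p6, 250 bases before to 50 after each start) were found for 33 of 36 genes, and not for Ndufa2, Ndufb9 and Ndufs1. NRF1, nuclear respiratory factor 1, binds palindromic GC-rich sites. Its letters GCGCNTGCG, on either strand, were in 9 of 33 genes, beside 7.12% of 27025 genes, which were not limited to expressed ones. Ndufs5 (r of 0.91), Ndufa12 (0.89) and Ndufb4 (0.46) held these letters. The 6 genes closest to the mean of the others also held them, while the next, Ndufb5 (r of 0.945), did not. The cut at 6 follows where the run of matches stopped in these data, so it is a description only. Matches in these 6 genes are shown, each 5′ to 3′ on the strand of the gene, with the match in capitals.
Ndufs6, chr13:73328479-73328508, minus strand: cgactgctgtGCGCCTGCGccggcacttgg
Ndufb10, chr17:24724430-24724459, minus strand: ctgcccactaCGCAGGCGCagctgtcacct
Ndufa11, chr17:56717692-56717721, plus strand: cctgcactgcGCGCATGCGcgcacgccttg
Ndufa5, chr6:24527696-24527725, minus strand: gtgtgagctgCGCAGGCGCaaatctacctc
Ndufa8, chr2:36049349-36049378, minus strand: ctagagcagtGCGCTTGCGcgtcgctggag
Ndufa6, chr15:82354249-82354278, minus strand: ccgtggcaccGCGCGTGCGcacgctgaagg

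In Ndufb10 and Ndufa5 the capitals are the reverse complement of the letters searched. In Ndufa11 matches on both strands overlap, and Ndufa8 holds a further match. The 9 genes with a match had a median r with the mean of the others of 0.95, with 7 of 9 at 0.9 or more, and the 23 genes with a window and counts but no match had 0.88, with 8 of 23. Ndufb4 had matches and an r of 0.46. The ETS letters CCGGAAG, bound by GABPA, were in 4 genes (Ndufb6, Ndufb7, Ndufs3 and Ndufs8), beside 9.93% of genes. A match is a description of letters and not a site shown to be bound. The part of these factors in the correlation between genes was not tested.

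YY1, a zinc finger factor, has sites with the letters AAGATGGC. These were in 7 of 33 genes, beside 3.19% of all genes, and in each on the strand of the gene, starting 22 to 38 bases after the transcript start. In 7 of 7 the ATG within the match is the annotated start codon, so the letters overlap the first codons. They are shown because the position was shared by all 7 genes.
Ndufa3, chr7:3617384-3617413, plus strand: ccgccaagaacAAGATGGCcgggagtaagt
Ndufa9, chr6:126849097-126849126, minus strand: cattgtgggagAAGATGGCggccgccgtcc
Ndufb8, chr19:44555393-44555415, minus strand: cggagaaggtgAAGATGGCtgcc
Ndufc1, chr3:51408915-51408944, minus strand: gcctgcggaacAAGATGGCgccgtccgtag
Ndufs4, chr13:114388045-114388070, minus strand: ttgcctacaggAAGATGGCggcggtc
Ndufs6, chr13:73328433-73328460, minus strand: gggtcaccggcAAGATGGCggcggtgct
Ndufs7, chr10:80249462-80249491, plus strand: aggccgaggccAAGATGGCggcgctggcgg

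The 7 genes had a median r of 0.85, against 0.89 for the 25 without a match, and included both the highest gene, Ndufs6, and one of the lowest, Ndufs4.

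**Figure D4:**
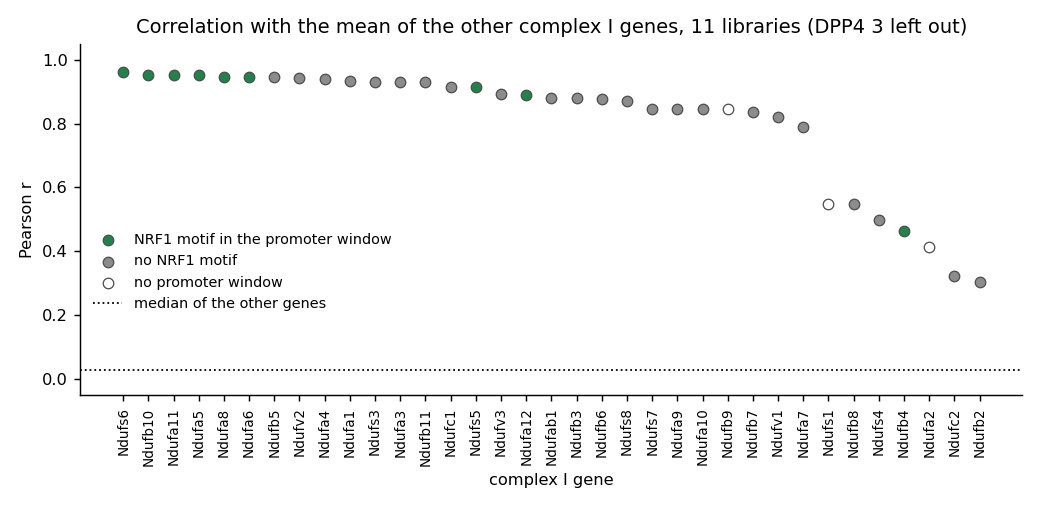
Points are the 35 complex I genes in order of the Pearson r of their log2 level with the mean of the other complex I genes over 11 libraries, DPP4 library 3 left out. Green points have the NRF1 letters in the promoter window, grey points do not and open points have no window. Values run from 0.96 (Ndufs6) to 0.30 (Ndufb2), above the dotted line at 0.03, the median of other genes.

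In the mitochondrial pair the question was which RNA was captured with H2O2 over the control without it, but the labels do not say which library is which, and values are given by label. The pair is 1 library each, MITO-1 with 18268471 and MITO-1c with 18716681 counts, so differences carry no test, and 95% intervals cover counting error only. The log2 ratio of MITO-1 over MITO-1c had a median of -0.24 over 35 complex I genes, against -0.15 for 9093 genes with at least 100 counts in both. The interval lay above 0 for 8 genes, below 0 for 21 and held 0 for 6. With TMM factors, which shift all ratios by 0.22, these counts were 14, 14 and 7 and the median was -0.02. Against the median of all genes they were 12 above, 16 below and 7 holding it.

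The ratios of complex I genes lay close together. Of the 33 with at least 100 counts in both libraries, 1 differed by 2-fold or more, beside 28.3% of the 9093 genes. The count was 1 of 22 for complexes II to IV, 1 of 15 for ATP synthase and 4 of 11 for complex I assembly factors. That gene was Ndufab1, with 33.9 CPM in MITO-1 and 95.2 CPM in MITO-1c, a log2 ratio of -1.49 (-1.62 to -1.36). Ndufb3 had 24.2 CPM in MITO-1 and 43.3 CPM in MITO-1c, a log2 ratio of -0.84 with an interval of -1.004 to -0.67, and Ndufc1 65.03 CPM in MITO-1 and 111 CPM in MITO-1c, a log2 ratio of -0.77 with an interval of -0.87 to -0.67. At the other end, Ndufa2 had 82.2 CPM in MITO-1 and 45.2 CPM in MITO-1c, a log2 ratio of 0.86 with an interval of 0.74 to 0.98. Ndufs5 had 27.2 CPM in MITO-1 and 18.4 CPM in MITO-1c, a log2 ratio of 0.57 with an interval of 0.37 to 0.76, and Ndufs4 78.9 CPM in MITO-1 and 60.7 CPM in MITO-1c, a log2 ratio of 0.38 with an interval of 0.27 to 0.49. These 6 ratios kept their signs with TMM factors, with which Ndufa2, at 1.08, was also over 2-fold. The summed complex I counts gave a log2 ratio of -0.21 (-0.22 to -0.19).

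By role the core subunits had a median log2 ratio of 0.06, between -0.21 (Ndufv1) and 0.34 (Ndufs3). The accessory subunits had -0.39 in the matrix arm, -0.37 in the proximal and -0.26 in the distal membrane arm. Beside them, complexes II to IV had 0.05, ATP synthase -0.06, complex I assembly factors -0.76 and the mt-Nd genes -0.35. All 5 mt-Nd genes with at least 100 counts in both libraries, whose RNA is made in the compartment the bait is directed to, were lower in MITO-1, at log2 ratios of -0.78 to -0.27, and stay below 0 with the shift of 0.22 by TMM. The study reported mitochondrially encoded mRNAs as enriched with H2O2 for this bait, so MITO-1 is not assumed here to be the library with H2O2. The mt-Nd ratios rest on 1 library each. No direction between treatments is drawn from the pair. Complex I genes with transcripts under 700 bases had -0.40 (13 genes), beside 0.01 for 178 protein-coding genes of that length. Summed crypt and proliferation markers were 12.3 CPM in MITO-1 and 255 CPM in MITO-1c, and the part of such differences between the libraries in these ratios was not tested.

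**Figure D5:**
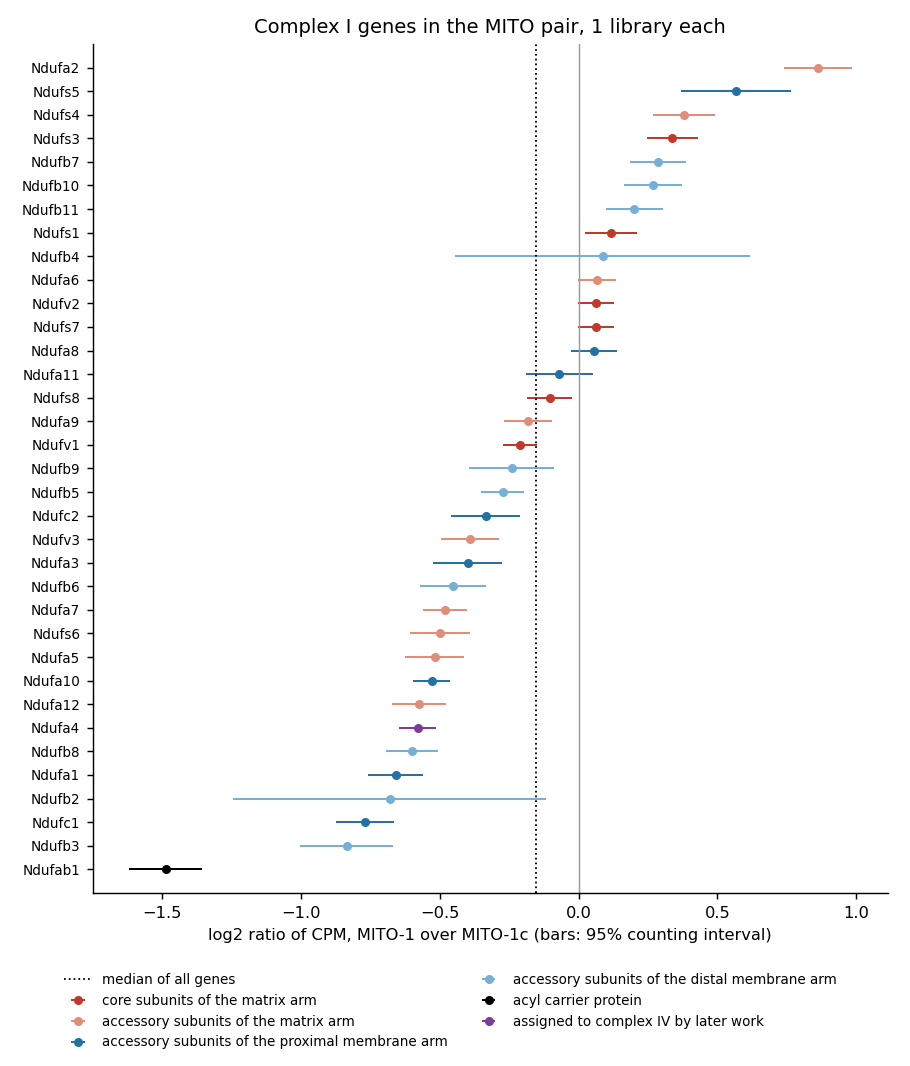
Points give the log2 ratio of CPM in the library labelled MITO-1 over that labelled MITO-1c for 35 complex I genes, colored by role, with bars for the 95% counting interval and 1 library on each side. The solid line is 0 and the dotted line the median of all genes, -0.15. Ratios run from 0.86 (Ndufa2) to -1.49 (Ndufab1).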

How the data were processed

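APEX-seq libraries of mouse sIOs (4 each of the DPP4, ACTB and GFP baits, 1 MITO-1 and 1 MITO-1c) were grouped by their labels. The authors deposited raw counts per gene in 1 table of 14 columns, with 0 columns of other samples. According to the study's methods and the submitters' processing notes, read pairs came from Nextera XT libraries. FastQC 0.11.9 and cutadapt 4.0 served for quality and adapters, STAR 2.7.9a for alignment to GRCm38 (mm10), and HTSeq 1.99.2 for counting. Its default mode drops reads with more than 1 place or gene. The later removal of libraries, ComBat-seq step and filter of the study are not in these counts, and preparation dates are not given in the sources used here. The labels do not state the treatment of the MITO pair, and its ratios are given by label, MITO-1 over MITO-1c.

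Gene names, coordinates, transcript lengths and overlaps came from GENCODE M21 on GRCm38 (54349 of 55401 genes matched by versioned ID, 792 by the ID without its version), and promoters from RefSeq. Tests used R 4.3.3 and edgeR 4.0.16 (robust quasi-likelihood, TMM, at least 5 counts over the 8 libraries of a comparison, Benjamini-Hochberg adjustment over all genes). limma 3.58.1 is required by edgeR, and DESeq2 1.42.0 was an alternative. Levels are normalized CPM with TMM factors over 12 libraries, and 0.5 counts were added before log2. MITO ratios used CPM of library totals. The scripts were tested on simulated data. Other code ran in Python 3.11.15.

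Values in every library are given for the 6 core subunits, for the 3 genes with the smallest p in each comparison, the 3 highest and 3 lowest per kilobase, the 3 widest and 3 narrowest in SD over 12 libraries, and the 3 highest and 3 lowest MITO ratios with at least 100 counts in both libraries. The genes, roles and lists were chosen with earlier results of these data known. Alternatives were DESeq2, its size factors, other low-count filters, a replicate block, 1 fit of 12 libraries, and leaving out shallow or single libraries. The correlations and overlaps without DPP4 library 3 were added after seeing the data.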

Additional observations from a re-analysis of the deposited data

Results flagged for a closer look

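In 6 of 72 groups of 4 libraries, 1 library lay far from the other 3. Each of the 6 groups is 1 gene in the 4 libraries of 1 bait. A chance rate of 1 in 20 groups, or 3.6, holds only for independent groups not picked on their values. The complex I genes varied together, and many were chosen for their values in these libraries. The 6 groups are therefore a description only. Ndufv1 had 1176 normalized CPM in DPP4 library 3, against 383, 269 and 262 in the other DPP4 libraries, while most complex I genes were at their lowest in that library. ACTB library 2 was high in 3 genes, with 148.8 normalized CPM for Ndufa8 (82.5, 86.3 and 86.0 in the other ACTB libraries), 160.2 for Ndufb7 (56.6, 56.9 and 71.3) and 105.1 for Ndufc1 (28.1, 35.4 and 38.7). This library also had the highest summed enterocyte markers of the ACTB bait, at 51380 normalized CPM, and their part in these values was not tested. Ndufs4 had 125.2 normalized CPM in GFP library 3, against 49.7, 48.6 and 55.1 in the other GFP libraries. Ndufb4 had 16.0 normalized CPM in GFP library 4, the library with the fewest counts, against 2.63, 4.68 and 2.99, and 35.2% of its 75-base stretches also occur in other genes.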

How the results depend on the processing

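No complex I gene was called under any alternative of the 3 bait comparisons. Counts of called genes over the whole table moved. DESeq2 called 48 genes in DPP4 against GFP, 73 in ACTB against GFP and 141 in DPP4 against ACTB, where edgeR called 0 in each. With no filter on low counts edgeR called 6 genes in DPP4 against GFP and 60 in DPP4 against ACTB. Leaving out 1 library at a time gave 0 to 10 genes in ACTB against GFP, with 10 without ACTB library 2 and 1 without GFP library 1, 0 to 56 in DPP4 against ACTB, with 56 without ACTB library 2, and 0 in DPP4 against GFP. With the replicate number as a block, the counts were 0, 0 and 166 genes, and the median log2 fold change of the complex I genes was -0.58 in DPP4 against GFP, -0.38 in ACTB against GFP and -0.25 in DPP4 against ACTB. Deviations of libraries with the same number correlated between -0.63 and 0.50, so the numbers were not taken to pair the libraries.

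Leaving out 1 library moved the median log2 fold change of the complex I genes between -0.75 and -0.03 in DPP4 against GFP, between -0.75 and -0.14 in ACTB against GFP, and between -0.42 and 0.36 in DPP4 against ACTB. Ndufb7 reversed in DPP4 against ACTB, at 0.045 without ACTB library 2 (range -0.92 to 0.05), and its adjusted p was 0.999. The median SD of the complex I genes ranged between 0.67, without DPP4 library 3, and 1.11. The median MITO ratio was -0.020 with TMM, against -0.24 with library totals. Of 245 values recomputed, 233 stayed within their limits, some with a change of sign. For a median log2 fold change the limit was 0.99, the spread of library medians within baits. That is wider than any shift of these medians, so none could pass it. For the fold change of a single gene only its sign and its call were compared. The count of 233 is therefore no measure of stability. The DPP4 against ACTB median, -0.03, was above 0 with DESeq2 (0.03), its size factors, the stricter filter, without the shallow libraries, and without DPP4 library 3, DPP4 library 4 or ACTB library 2. The causes were not tested. DPP4 library 4 and GFP library 4 had under 50% of the median total.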
